A study of Mus musculus with 19 samples.

Results

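The genes described here are 43 interferon response genes, the genes that cells switch on when they sense an interferon or foreign nucleic acid. They were chosen by symbol as known members of this response. All 43 were listed with a p-value in each of 3 comparisons of the mouse retina, which list 23635 genes at 14 days, 22294 at 48 h and 35734 at E17.5. The question was which genes respond when Pou3f1, a POU family transcription factor, is added to or removed from the retina.

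The series holds 19 libraries in 6 groups. In the overexpression experiment, plasmid DNA at 3 µg/µl was electroporated into the eyes of wild-type CD1 pups on postnatal day 1, and each replicate was a pool of 150000 sorted GFP-positive cells. The groups were Pou3f1 cells (n = 5) and Gfp control cells (n = 4) at 14 days, and Pou3f1 cells (n = 3) and Gfp control cells (n = 3) at 48 h. The sample labels give 14 days after electroporation for the late groups, while the protocol text gives postnatal day 14. The loss-of-function groups were whole C57B6J retinas at E17.5, homozygous for the Pou3f1 knockout (n = 2) or heterozygous (n = 2), so both carry at least 1 mutant allele. Each sorted replicate is a pool of cells, both electroporated arms passed through surgery and sorting, and the promoter of the plasmids is not given in the sources used here. Nothing in the labels ties a replicate to separate animals, so each p-value reflects the scatter among these libraries alone, which may be technical.

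Each file holds 1 finished comparison by the authors, so values cannot be shown by library and the depth of each is unknown. A mean count is the authors' normalized count averaged over both arms of a comparison, and a log2 fold change is their estimate, given with its standard error (SE). The words rose and fell are kept for genes whose adjusted p, as the authors give it, was under 0.05. In the authors' deposited table, the log2 fold change of Pou3f1 was 5.57 ± 0.27 at 14 days (adjusted p = 3.40e-88), the direction the labels call for. In the authors' deposited tables it was 0.91 ± 0.26 at 48 h (adjusted p = 0.0233) and -0.69 in knockout over heterozygous retinas (adjusted p = 1.98e-08). As a check of the tissue at 14 days, all 24 rod photoreceptor genes searched were listed with an adjusted p in the authors' deposited table. At 48 h only 6 of the 24 were listed, and at E17.5 12 of the 24 had an adjusted p, so the check covers 14 days only.

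As background, type I interferons bind the receptor chains Ifnar1 and Ifnar2, whose kinases Jak1 and Tyk2 phosphorylate Stat proteins. Stat2 is one of these and joins Irf9 in a complex that binds the interferon-stimulated response element (ISRE) in the promoters of the target genes. The targets include sensors of viral nucleic acid, enzymes that degrade or edit RNA, the ubiquitin-like protein ISG15 and inhibitors that end the response. In the nervous system neurons, glia and microglia can all mount the response, microglia usually with high levels of many of its genes.

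At 14 days most interferon response genes rose in cells given Pou3f1, relative to Gfp cells. Of 43 genes, 35 rose, 0 fell and 8 did not pass, against 11.5% of all 17789 tested genes that rose and 9.21% that fell. Of the 8, 3 had an unadjusted p under 0.05, so that 38 of 43 were higher by that measure, against 12.8% of all genes with a p-value. In the authors' deposited table all 43 fold changes were above 0, against 48.4% of all genes with a p-value, and their median log2 fold change was 1.24, against -0.01 over all genes. Of the 35, 30 rose at least 2-fold, against 2.42% of all tested genes. The range of the 35 ran from 0.38 for Adar to 3.10 for Usp18. All 43 passed the authors' filter on low counts at 14 days, where their mean counts lay between 9.15 and 3531.

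Usp18 and Ifi27 stood at the head of the list, and both ranked among the largest rises of the whole 14 day table. By log2 fold change, Usp18 ranked 19 and Ifi27 ranked 25 of all genes listed at 14 days. Of the 200 largest rises in that table, 16 were interferon response genes, which make up 43 of the 17789 tested genes. The 43 were chosen with earlier results of these data known. The plot of all 43 genes in the 3 comparisons shows them ordered by role.

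**Figure D1:**
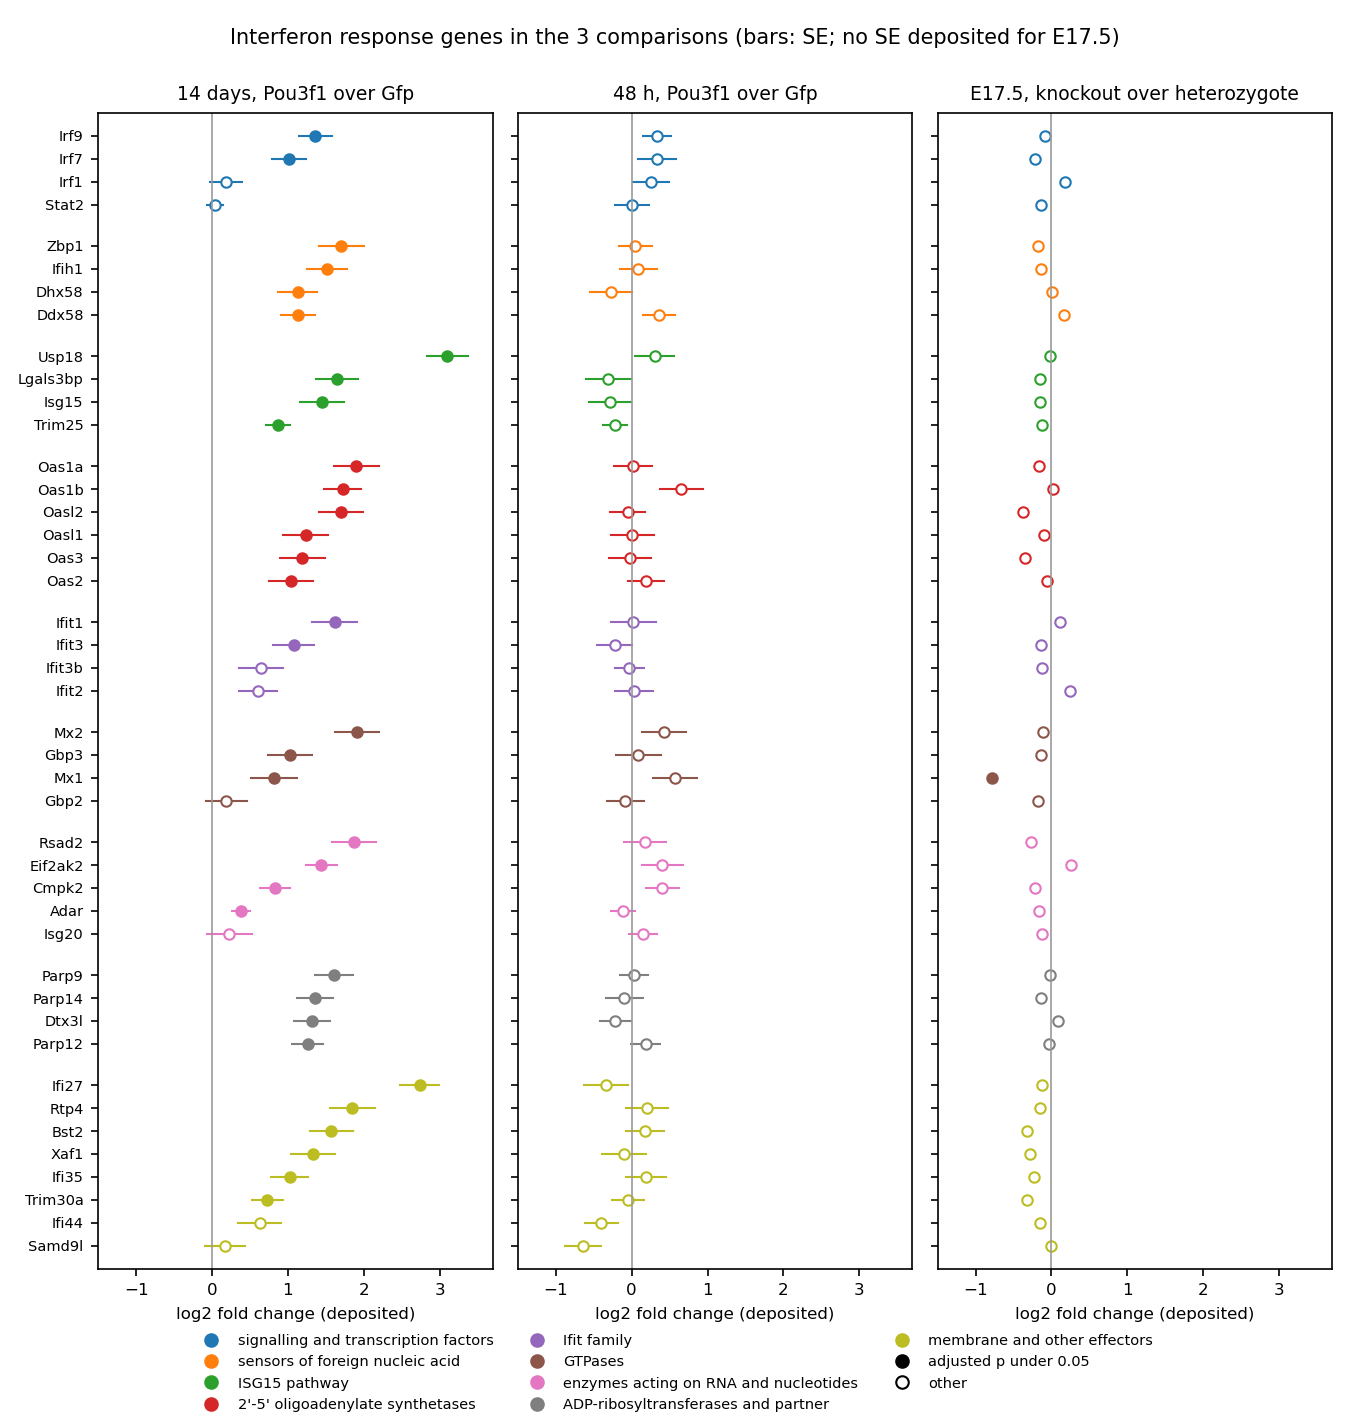
Deposited log2 fold change of 43 interferon response genes (x axis, log2 scale) at 14 days and 48 h (Pou3f1 over Gfp, bars are SE) and at E17.5 (knockout over heterozygote, no SE deposited), grouped by role. Filled points have an adjusted p under 0.05: 35 at 14 days, 0 at 48 h and 1, Mx1, at E17.5.

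The promoters of some of these genes hold the letters of the ISRE, and the stretches below are shown because they carry the element by which the response is known. RefSeq promoter windows on GRCm38.p6, from 250 bases before to 50 bases after the start, were found for 32 of the 43 genes. The core searched for was GAAA, any 2 bases and GAAA again, on both strands, so that it also reads TTTC, 2 bases and TTTC. It was present in 15 of the 32 genes (46.9%), against 3.99% of all 27025 genes with a window. Capitals mark the core, and overlapping cores form 1 run of capitals. Each sequence is given 5′ to 3′ on the strand of its gene.
Isg15: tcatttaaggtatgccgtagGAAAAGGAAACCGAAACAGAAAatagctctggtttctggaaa
Bst2: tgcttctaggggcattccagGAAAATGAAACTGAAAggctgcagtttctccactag
Ifit1: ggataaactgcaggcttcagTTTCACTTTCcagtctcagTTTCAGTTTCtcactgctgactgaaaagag
Ifit3: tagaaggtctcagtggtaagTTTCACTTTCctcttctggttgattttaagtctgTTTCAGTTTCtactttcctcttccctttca
Ifit3b: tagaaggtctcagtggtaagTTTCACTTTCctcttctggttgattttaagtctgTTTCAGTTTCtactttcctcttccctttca
Oas3: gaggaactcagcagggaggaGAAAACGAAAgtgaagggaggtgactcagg
Rsad2: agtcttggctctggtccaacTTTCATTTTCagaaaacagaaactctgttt
Stat2: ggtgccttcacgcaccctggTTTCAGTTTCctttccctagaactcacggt

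On GRCm38.p6 these stretches lie at chr4:156200855-156200916 (Isg15, minus strand), chr8:71537567-71537622 (Bst2, minus strand) and chr19:34640765-34640833 (Ifit1, plus strand). Those of the copies Ifit3 and Ifit3b lie at chr19:34583353-34583436 and chr19:34607749-34607832 on the plus strand. The stretch of Oas3 lies at chr5:120777705-120777754 on the minus strand, that of Rsad2 at chr12:26456543-26456592 on the minus strand and that of Stat2 at chr10:128270256-128270305 on the plus strand. All 8 lie upstream of the RefSeq start. Isg15 has 3 overlapping cores and Bst2 has 2, while Ifit1, Ifit3 and Ifit3b have 2 separate cores each.

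Genes with and without the core rose at 14 days. Of the 15 genes with the core 12 rose, with a median log2 fold change of 1.19. Of the 17 with a window but no core 12 rose, with a median of 1.02, and of the 11 without a window all 11 rose, with a median of 1.70. Stat2 and Gbp2 have the core and did not pass. Another interferon element, TTCNNNGAA, which reads the same on both strands and is known as the gamma-activated site, was present in 8 of the 32 genes, against 9.55% of all genes with a window. The octamer ATGCAAAT, the classical site of POU factors, was present on either strand in 0 of the 32, against 1.97% of all. With so low a share over all genes, 0 of 32 does not show that these windows lack the octamer more than others. A match is a description of these letters in this window and says nothing of binding.

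**Figure D2:**
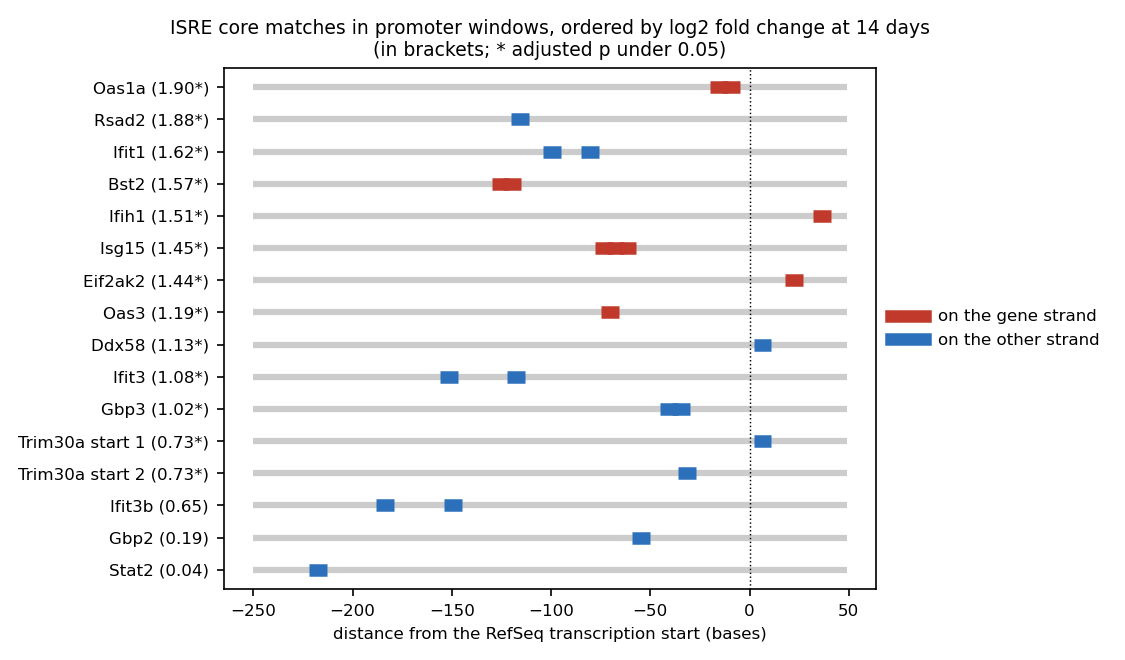
Positions of the ISRE core (coloured blocks, by strand) along each promoter window (grey, in bases from the RefSeq start), for the 15 interferon response genes that have it, ordered by their log2 fold change at 14 days in brackets. Trim30a has 2 starts. Of the 15, the genes marked * rose, and the lowest 3, Ifit3b, Gbp2 and Stat2, did not pass.

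The factors that carry the interferon signal to the genome did not move together at 14 days. Irf9, the DNA-binding partner of the Stat proteins, rose by 1.36 ± 0.22 with a mean count of 1148 (adjusted p = 3.29e-08, authors' deposited table). Irf7, which drives further interferon production, rose by 1.02 ± 0.23 with a mean count of 622 (adjusted p = 0.000176, authors' deposited table). Stat2 had 0.04 ± 0.11 with a mean count of 1833, the smallest SE of the 43 genes (adjusted p = 0.851, authors' deposited table). The value of Irf1, a factor best known from the interferon gamma response, was 0.19 ± 0.21 (adjusted p = 0.578, authors' deposited table). Thus 2 of the 4 factors rose, and Irf9 rose while its partner Stat2 stayed near 0.

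The 4 sensors of foreign nucleic acid all rose. Zbp1, which binds left-handed double-stranded nucleic acid and can start cell death, rose by 1.70 ± 0.30 with a mean count of only 27.8 (adjusted p = 6.77e-07, authors' deposited table). Ifih1, the long double-stranded RNA sensor MDA5, rose by 1.51 ± 0.26 with a mean count of 237 (adjusted p = 4.22e-07, authors' deposited table). Ddx58, the RNA sensor RIG-I, had 1.13 ± 0.22 with a mean count of 461, and Dhx58, their relative LGP2 without a signalling domain, 1.13 ± 0.26 at 56.1 (adjusted p = 1.92e-05 and 0.000253, authors' deposited table). Their folds were therefore alike, between 2.19-fold and 3.26-fold, over mean counts that differ widely.

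The group that holds Isg15, whose small ubiquitin-like product is attached to other proteins, included the largest rise among the 43. Usp18 encodes the protease that removes ISG15 and also blocks the interferon receptor, and it rose by 3.10 ± 0.27, or 8.59-fold, with a mean count of 342 (adjusted p = 4.47e-27, authors' deposited table). Isg15 itself rose by 1.45 ± 0.29 with a mean count of 112 (adjusted p = 3.05e-05, authors' deposited table). Lgals3bp, a secreted glycoprotein only listed with this group, rose by 1.65 ± 0.28 with a mean count of 1188 (adjusted p = 1.89e-07, authors' deposited table). Trim25, the ubiquitin ligase that acts with RIG-I, rose less, by 0.87 ± 0.16, with a mean count of 2681 (adjusted p = 2.15e-06, authors' deposited table). All 4 passed, over a range of 1.83-fold to 8.59-fold.

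The oligoadenylate synthetase family, whose active members make short adenylate chains in response to double-stranded RNA, rose in full: 6 of 6 passed, each by more than 2-fold. Oas1a led with 1.90 ± 0.30 with a mean count of 91.9 (adjusted p = 1.36e-08, authors' deposited table). Oas1b had 1.72 ± 0.24 at 144 and Oasl2 1.70 ± 0.29 at 1080 (adjusted p = 2.25e-10 and 4.17e-07, authors' deposited table). Oasl1, Oas3 and Oas2 were lowest, with 1.24 ± 0.30, 1.19 ± 0.29 and 1.04 ± 0.29 at mean counts of 23.9, 34.6 and 26.7 (adjusted p between 0.000610 and 0.00390, authors' deposited table). GENCODE release 21 annotates Oas1b, like Mx2, as a polymorphic pseudogene, that is a gene intact in some mouse strains only. Oas1a shares 68.8% of its 31-base words with other genes, nearly all with its neighbour Oas1g, so its reads and those of Oas1g are hard to assign.

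Of the 4 Ifit genes, whose proteins bind viral RNA ends, 2 rose. The rise of Ifit1 was 1.62 ± 0.30 with a mean count of 207, and that of Ifit3 1.08 ± 0.27 at 184 (adjusted p = 2.65e-06 and 0.000998, authors' deposited table). Ifit3b had 0.65 ± 0.29 at 68.3 and Ifit2 0.60 ± 0.25 at 278 (adjusted p = 0.0996 and 0.0706, authors' deposited table). Both were above 0 with an unadjusted p under 0.05 but did not pass. Ifit3 and Ifit3b are near copies: the printed stretches are identical, their windows matched at 259 of 260 bases aligned without a gap, with 80 further gap positions (76.18% identity over the whole alignment), and Ifit3 shares 61.8% of its 31-base words with Ifit3b. The split of reads between these copies, and so the call of 1 and not of the other, is uncertain.

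Among the GTPases, Mx2 rose most, by 1.92 ± 0.29 with a mean count of 42.7 (adjusted p = 4.32e-09, authors' deposited table). Mx1 and Mx2 are dynamin-like antiviral proteins, and Mx1 rose by 0.82 ± 0.30 with a mean count of 17.45 (adjusted p = 0.0327, authors' deposited table). The guanylate-binding protein gene Gbp3 rose by 1.02 ± 0.29 with a mean count of 138 (adjusted p = 0.00450, authors' deposited table). Its relative Gbp2 had 0.19 ± 0.27 at 59.4 (adjusted p = 0.680, authors' deposited table). Thus 3 of 4 passed, and Mx1 was the 1 whose adjusted p lay above 0.01.

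Of 5 enzymes that act on RNA or nucleotides 4 rose, by 1.302-fold to 3.67-fold. Rsad2, or viperin, makes a chain-terminating nucleotide, and it rose by 1.88 ± 0.29 with a mean count of 143 (adjusted p = 7.35e-09, authors' deposited table). Cmpk2, its neighbour on chromosome 12, is a nucleotide kinase and rose by 0.83 ± 0.20 at 274 (adjusted p = 0.000498, authors' deposited table). Eif2ak2, the kinase PKR that stops translation on double-stranded RNA, rose by 1.44 ± 0.20 with a mean count of 546 (adjusted p = 2.83e-10, authors' deposited table). The smallest rise was that of Adar, which edits double-stranded RNA, 0.38 ± 0.11 or 1.302-fold with a mean count of 3531 (adjusted p = 0.00773, authors' deposited table). Isg20, an RNA exonuclease, had 0.23 ± 0.30 with a mean count of 9.15 (adjusted p = 0.639, authors' deposited table). Adar thus passed at a small fold with a small SE, while the SE of Isg20, the lowest mean count of the 43, was as large as its fold change.

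The 4 genes of the ADP-ribosyltransferase group rose within a narrow range, 2.40-fold to 3.06-fold. Parp9 and its ubiquitin ligase partner Dtx3l work as a pair, and they rose by 1.61 ± 0.25 and 1.32 ± 0.24 at mean counts of 426 and 466 (adjusted p = 1.39e-08 and 1.19e-06, authors' deposited table). Parp14 rose by 1.36 ± 0.24 and Parp12 by 1.26 ± 0.20 at mean counts of 289 and 532 (adjusted p = 9.61e-07 and 4.52e-08, authors' deposited table). Parp9 and Dtx3l lie head to head and overlap on opposite strands of chromosome 16, so without strand information their reads near the shared start cannot be told apart.

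Of the 8 remaining effectors 6 rose. Ifi27, a mitochondrial protein gene, rose by 2.74 ± 0.26, or 6.67-fold, with a mean count of 602 (adjusted p = 2.25e-23, authors' deposited table). Rtp4, a chaperone of membrane receptors, and Bst2, tetherin, which holds budding viruses at the cell surface, rose by 1.85 ± 0.29 and 1.57 ± 0.28 at mean counts of 156 and 187 (adjusted p = 2.88e-08 and 1.52e-06, authors' deposited table). Xaf1, an antagonist of an inhibitor of apoptosis, rose by 1.33 ± 0.29 with a mean count of 167 (adjusted p = 0.000100, authors' deposited table). These 4 rose by 2.52-fold to 6.67-fold. Ifi35 and Trim30a rose less, by 1.02 ± 0.24 and 0.73 ± 0.20 at mean counts of 104 and 93.0 (adjusted p = 0.000435 and 0.00356, authors' deposited table). Ifi44 had 0.63 ± 0.29 and Samd9l, a growth-inhibiting antiviral gene, 0.17 ± 0.27 (adjusted p = 0.104 and 0.706, authors' deposited table), and neither passed.

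Over the 43 genes Spearman's rho between log2 fold change and mean count at 14 days was 0.13, given as a description of genes that share the same libraries. Of the 43, 11 had an SE above 0.29 in the authors' deposited table, close to the largest SE of any gene in that table, 0.297. A ceiling of this kind is what shrinkage of low genes gives, and no source used here states whether shrinkage was applied. The plot of fold change against mean count shows the 43 genes beside the microglia markers.

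**Figure D3:**
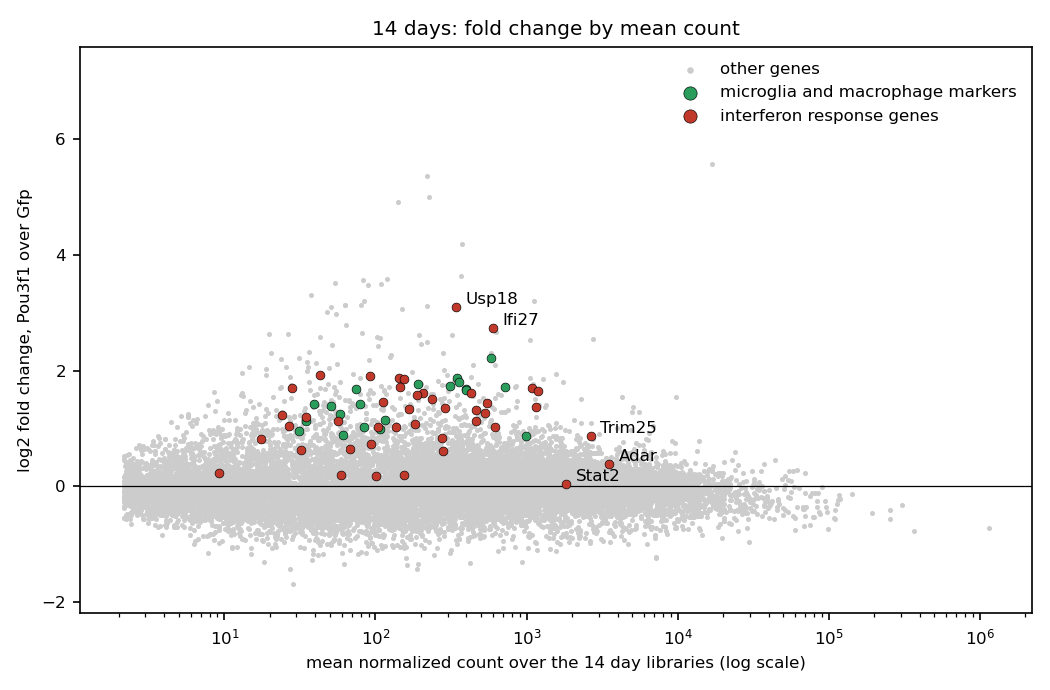
Deposited log2 fold change at 14 days (Pou3f1 over Gfp, y axis) against mean normalized count (x axis, log scale) for genes with an adjusted p. Red points are the 43 interferon response genes, all above 0, green points the 20 microglia and macrophage markers, also all above 0, and grey points the other genes.

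Microglia and macrophage markers rose beside the interferon response genes at 14 days. Of 20 such markers 20 rose and 0 fell, with a median log2 fold change of 1.43 (adjusted p between 5.58e-25 and 0.00678, authors' deposited table). Ctss, a lysosomal protease of these cells, rose by 2.22 ± 0.20, and the complement gene C1qc and the receptor gene Cx3cr1 by 1.87 ± 0.24 and 1.66 ± 0.23 (adjusted p between 5.58e-25 and 1.01e-10, authors' deposited table). Mean counts of the 20 markers lay between 31.1 and 991, none at 0, and their summed share of all mean counts was 0.0131% at 14 days and 0.00300% at 48 h, in tables that were normalized separately. The same share for the 43 interferon response genes was 0.0491% at 14 days and 0.0441% at 48 h. The samples were sorted for GFP-positive cells, and how far the gate removed other cells was not tested. The tables give no level per group, and in pooled samples more cells of a type and more RNA per cell cannot be told apart. The part of the microglia markers in the interferon result was not tested.

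Most called markers of other retinal cell types fell at 14 days, apart from those of ganglion cells. Of 24 rod genes 0 rose and 21 fell (median -0.51), of 14 Müller glia genes 0 rose and 8 fell (median -0.40), and of 12 blood vessel genes 0 rose and 3 fell (median -0.59). Of 3 T and NK cell genes with an adjusted p 1 rose, Cd4 at 0.88 ± 0.29 (adjusted p = 0.0177, authors' deposited table). Of 11 astrocyte and reactive glia genes 0 rose and 2 fell, and of 18 ganglion cell genes 5 rose and 1 fell. The astrocyte and Müller glia lists share Aqp4 and Slc1a3, and the fall of Aqp4 is counted in both. The part of all these cell type lists in the interferon result was not tested.

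Upstream of the 43 genes, interferon transcripts had mean counts under 1 and most receptor and kinase genes did not pass at 14 days. Of 12 interferon genes searched 6 were listed, with a summed mean count of 2.25 and no adjusted p in the authors' deposited table. Of 16 receptor and JAK-STAT genes 2 rose and 0 fell, with a median of 0.05. The phosphatase gene Ptpn6 rose by 0.83 ± 0.28 with a mean count of 58.6 (adjusted p = 0.0191, authors' deposited table). The receptor genes Ifnar1 and Ifnar2 had 0.12 ± 0.07 and 0.17 ± 0.22, and the kinase genes Jak1 and Tyk2 -0.09 ± 0.11 and -0.08 ± 0.11 (adjusted p between 0.241 and 0.684, authors' deposited table).

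Of 21 genes for other sensors, adaptors and kinases 6 rose and 1 fell, with a median of 0.06. Unc93b1, which escorts endosomal Toll-like receptors, and the receptors Tlr9 and Tlr7 led with 1.26 ± 0.26, 1.32 ± 0.29 and 1.1996 ± 0.30 (adjusted p between 4.93e-05 and 0.000956, authors' deposited table). The RNA polymerase III subunit gene Polr3d rose by 0.32 ± 0.10 (adjusted p = 0.0141, authors' deposited table). Aim2, a DNA sensor, and Irf8, a factor of myeloid cells, rose too, by 0.72 ± 0.25 and 0.67 ± 0.26, and Myd88, the adaptor of most Toll-like receptors, fell by 0.37 on the log2 scale with an SE of 0.13 (adjusted p between 0.0272 and 0.0490, authors' deposited table). The adaptor genes Mavs and Sting1 had -0.16 ± 0.12 and -0.34 ± 0.30, the values for the DNA sensor gene Cgas and the factor gene Irf3 being 0.03 ± 0.29 and -0.35 ± 0.16 (adjusted p between 0.0932 and 0.954, authors' deposited table).

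Of 16 negative regulators 1 rose and 1 fell. Socs1, which blocks the receptor kinases, rose by 0.89 ± 0.28, while Tnfaip3, the NF-kB inhibitor A20, fell by 0.78 on the log2 scale with an SE of 0.26 (adjusted p = 0.0106 and 0.0181, authors' deposited table). Of 16 NF-kB genes 1 rose and 1 fell, with a median of -0.06. They were the inhibitor gene Nfkbia at 0.24 ± 0.09 and the cofactor gene Bcl3 at -0.83 ± 0.30 (adjusted p = 0.0492 and 0.0305, authors' deposited table).

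A further 80 genes known to be induced by interferon, not among the 43, had an adjusted p at 14 days. Of these 38 rose and 1 fell, Gbp5 at -0.71 ± 0.16 (adjusted p = 0.000144, authors' deposited table), 21 rose at least 2-fold, and the median over the 83 with a p-value was 0.45. The largest of the named rises was that of Ifi27l2a, a relative of Ifi27, at 2.59 ± 0.29 (adjusted p = 3.94e-16, authors' deposited table). Irgm1, Irgm2 and Igtp, GTPases of the immunity-related family, rose by 1.89 ± 0.26, 1.195 ± 0.21 and 1.35 ± 0.24 (adjusted p between 3.83e-11 and 1.13e-06, authors' deposited table). Gbp6 had 1.52 ± 0.25, Ifi209, of a DNA-binding family, 1.92 ± 0.30, and Oas1g 1.70 ± 0.30 (adjusted p between 1.02e-08 and 7.27e-07, authors' deposited table). The Gbp family thus held members that rose, Gbp3 and Gbp6, one that fell, Gbp5, and Gbp2, which did not pass.

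**Figure D4:**
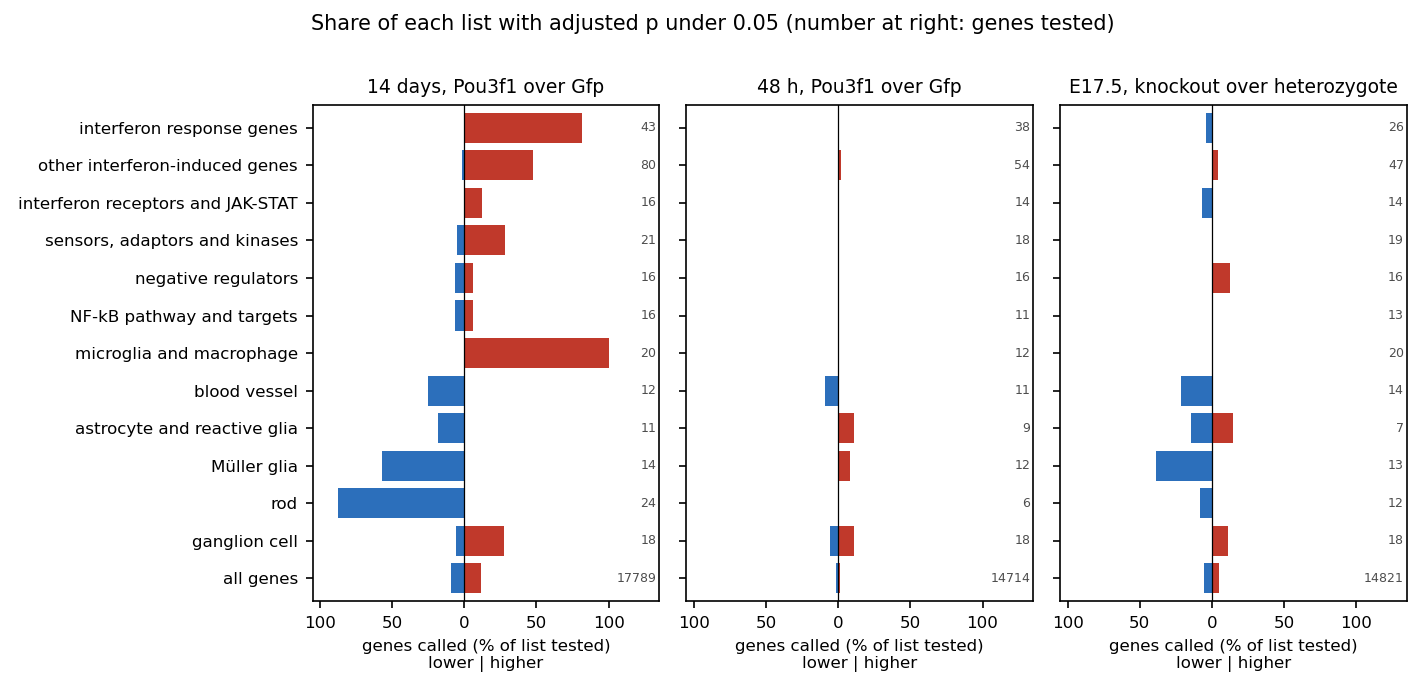
Share of each gene list with an adjusted p under 0.05 (x axis, percent of the genes tested, higher to the right in red, lower to the left in blue; the number tested stands at the right) in the 3 comparisons. At 14 days 35 of 43 interferon response genes and 20 of 20 microglia markers rose, while 21 of 24 rod genes fell.

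At 48 h none of the interferon response genes passed, in a contrast where Pou3f1 itself differed less. The log2 fold change of Pou3f1 was 0.91 ± 0.26 at 48 h, against 5.57 ± 0.27 at 14 days (authors' deposited tables). Its mean count over both arms was 37278.7 at 48 h and 16971.5 at 14 days, normalized separately. The smaller fold change therefore does not show that the 48 h cells held less Pou3f1 RNA. The median mean count of the 43 genes was 58.5 at 48 h and 167 at 14 days, normalized separately. A gene that did not pass at 48 h was therefore not shown to be without an early response. Of the 38 with an adjusted p, 0 rose and 0 fell by the authors' test (DESeq2, per the submitters' processing notes), against 3.04% of all 14714 tested genes called in either direction. At an unadjusted p under 0.05, 1 of the 43 was higher, Oas1b, and 1 lower, Samd9l, against 9.82% of all genes with a p-value. Benjamini-Hochberg adjustment over all genes with a p-value also called 0. The median log2 fold change of the 43 was 0.03, with 26 above 0, against 50.1% of all genes with a p-value, and 17 below, and all lay between -0.64 and 0.65 in the authors' deposited table.

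Oas1b had 0.65 ± 0.28 and Samd9l -0.64 ± 0.24 at 48 h (adjusted p = 0.225 and 0.131, authors' deposited table). The leaders of the later time stood near 0 on either side: Usp18 had 0.31 ± 0.26 with a mean count of 109 and Ifi27 -0.33 ± 0.29 at 30.5 (adjusted p = 0.655 and 0.672, authors' deposited table). The factor genes Irf9 and Irf7 had 0.33 ± 0.19 and 0.33 ± 0.25 (adjusted p = 0.422 and 0.599, authors' deposited table). Zbp1, Isg20, Ifit3b, Ifi44 and Trim30a had mean counts from 3.82 to 7.89 and a p-value but no adjusted p at 48 h, so they stayed out of the count. Over the 43 genes Spearman's rho between the 14 day and 48 h fold changes was 0.17, a description across genes.

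Of 54 other interferon-induced genes with an adjusted p 1 rose and 0 fell, Ifitm2, a membrane protein gene that blocks virus entry, at 1.09 ± 0.21 (adjusted p = 4.68e-05, authors' deposited table). At 14 days Ifitm2 had -0.15 ± 0.28 (adjusted p = 0.755, authors' deposited table). Of 12 microglia markers with an adjusted p, 0 rose and 0 fell at 48 h in the authors' deposited table, the median over 20 being -0.11 (by unadjusted p under 0.05, 0 were higher and 2 lower). Receptor, sensor, regulator and NF-kB genes had 0 called of 14, 18, 16 and 11 tested in the authors' deposited table (at an unadjusted p under 0.05, 1, 3, 0 and 0 were higher and 1, 0, 1 and 0 lower among those with a p-value).

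The difference between the time points was itself tested. The log2 fold change at 14 days was set against that at 48 h for the 38 genes that have an adjusted p at both times, in tables that share no library, by a two-sided z test with the SE of both and Benjamini-Hochberg adjustment over 14580 genes. It was larger at 14 days for 24 of the 38 and smaller for 0, against 4.48% of all genes larger at 14 days. The median difference of the 38 was 1.22, against 0.03 over all genes. Of the 38 differences 37 were above 0, and the share of all genes with a difference above 0 was not counted. The part of the smaller Pou3f1 contrast and of the interferon genes' lower counts at 48 h in these differences was not tested.

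Ifi27 differed most, by 3.07 ± 0.39 (14 days minus 48 h, z test, adjusted p = 2.69e-12), and Usp18 by 2.80 ± 0.38 (adjusted p = 5.66e-11). Parp9 and Dtx3l followed by p, with 1.58 ± 0.31 and 1.54 ± 0.31 (z test, adjusted p = 4.05e-05 and 9.21e-05). Of the 33 genes tested that rose at 14 days, 9 did not pass the test of the difference. Oas1b was the nearest of these, with 1.07 ± 0.37 (z test, adjusted p = 0.0611), and Mx1 the farthest, with 0.25 ± 0.42 (adjusted p = 0.816). For Mx1 the 14 day rise of 0.82 stood beside 0.57 ± 0.29 at 48 h in the authors' deposited tables, and the difference was smaller than its SE. Irf1 was the gene whose difference was below 0, at -0.07 ± 0.31. Among 12 microglia markers tested in the same way 10 were larger at 14 days, with a median difference of 2.08, and their part in the difference of the interferon genes was not tested.

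**Figure D5:**
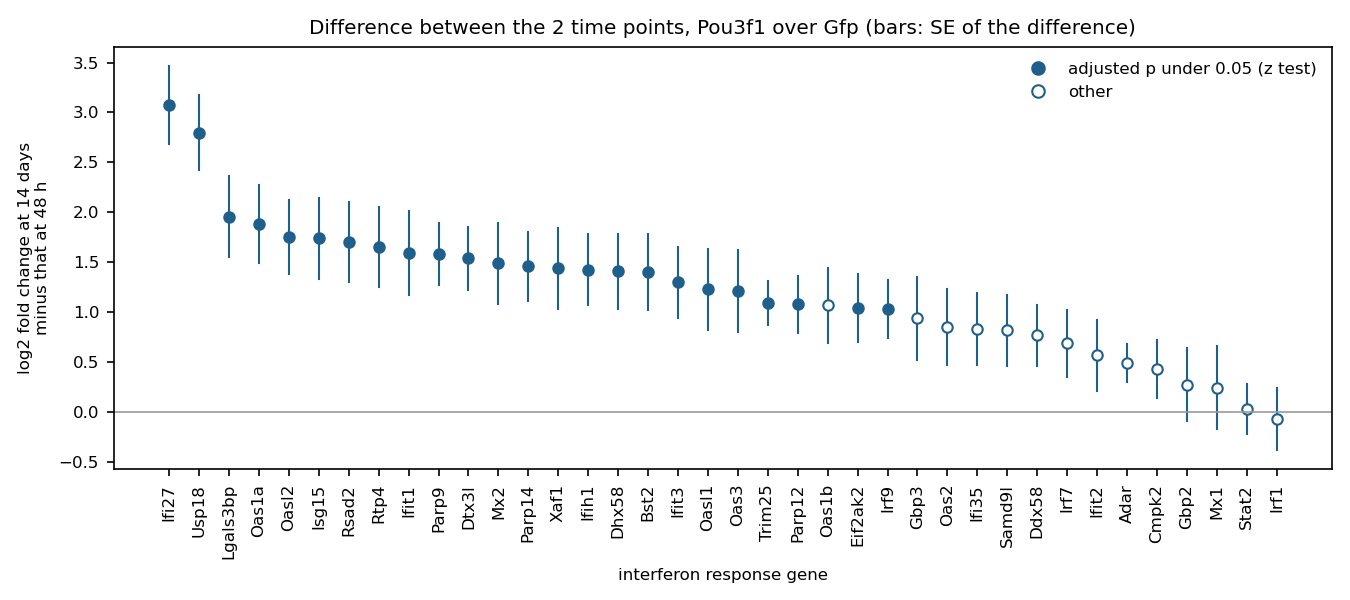
Log2 fold change at 14 days minus that at 48 h (Pou3f1 over Gfp, y axis, bars are the SE of the difference) for the 38 interferon response genes tested. Filled points, 24 of 38, have an adjusted p under 0.05 by the z test, and 37 of 38 lie above 0.

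At E17.5 a single interferon response gene changed in knockout retinas. Mx1 fell by 0.78 on the log2 scale in knockout over heterozygous retinas (adjusted p = 0.000224, authors' deposited table), which gives no SE and no mean count. Of the 26 genes with an adjusted p, 0 rose and 1 fell, against 4.70% of all 14821 tested genes that rose and 5.34% that fell. A single fall among 26 genes is near the share of all genes. Mx1 was also the gene that rose at 14 days with an adjusted p closest to the threshold. Its fold changes were of opposite sign in the 2 experiments, which holds for 29 of the 35 genes that rose at 14 days, Mx1 included. Of these only Mx1 passed at E17.5. Over all genes with a p-value 49.9% were below 0 at E17.5, and the share among all genes that rose at 14 days was not computed.

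The other genes lay mostly a little below 0 at E17.5. In the authors' deposited table the fold changes of 35 of the 43 were below 0, against 49.9% of all genes with a p-value, and the median was -0.13, against 0.00012 over all genes. At an unadjusted p under 0.05, 7 were lower, against 6.61% of all genes with a p-value, and 1 was higher, against 6.53%. The lower ones were Mx1, Oasl2 at -0.37, Oas3 at -0.35, Bst2 at -0.33, Rsad2 at -0.27, Cmpk2 at -0.22 and Adar at -0.16 in the authors' deposited table. Eif2ak2 was the higher one, at 0.25 (adjusted p = 0.135, authors' deposited table). The 17 genes without an adjusted p, Usp18, Ifi27 and Isg15 among them, were all below 0, at -0.27 to -0.01.

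Microglia markers lay below 0 in the same comparison. Of 20 markers all 20 had a fold change below 0 in the authors' deposited table, 0 passed, 6 were lower at an unadjusted p under 0.05, and the median was -0.25. With 2 libraries per group, and whole retinas in place of sorted cells, this comparison holds other cells than the overexpression experiment. Of 13 Müller glia genes 0 rose and 5 fell, of 14 blood vessel genes 0 rose and 3 fell, and of 18 ganglion cell genes 2 rose and 0 fell in the authors' deposited table. The part of all these markers in the E17.5 values was not tested.

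Among related genes at E17.5, Socs3, an inhibitor of cytokine receptors that signal through Stat3, rose by 0.80, and the RNase H2 subunit gene Rnaseh2b by 0.36 (adjusted p = 5.32e-08 and 0.0188, authors' deposited table), 2 of 16 negative regulators tested. Ifitm2 and Pnpt1, a mitochondrial RNase, rose by 0.42 and 0.34 (adjusted p = 0.00700 and 0.0423, authors' deposited table), the 2 that passed of 47 other interferon-induced genes. Of 14 receptor and JAK-STAT genes 1 fell, the coactivator gene Ep300 at -0.28 (adjusted p = 0.0197, authors' deposited table).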

How the data were processed

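RNA-seq values came from 3 tables of finished comparisons, 1 line per gene. The submitters' processing notes name Salmon, DESeq2, MACS2 and the build mm10; the sources used here give no version, annotation, design formula or strand setting. Per the file headers, the overexpression tables hold the authors' mean normalized count (a signal averaged over the libraries), their log2 fold change, its standard error, the Wald score (their quotient, checked to within 4.45e-07), and the deposited p-value and adjusted p. The E17.5 table holds the deposited log2 fold change, p-value and adjusted p. The deposited adjusted p was Benjamini-Hochberg over the genes that have one, recomputed to within 5.60e-06. The largest SE is 0.297 at 14 days and 0.296 at 48 h, a ceiling that shrinkage would give, which understates low genes; whether it was applied is not stated. Directions were read from Pou3f1; the E17.5 file name puts the heterozygote first and gives another embryonic day than the labels, whose age is used.

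The members, lists and tests were chosen with earlier results of these data known. No set test was run. Every member is named; from other lists up to 4 called genes by adjusted p were named (8 for other interferon-induced genes), and Ifnar1, Ifnar2, Jak1, Tyk2, Mavs, Sting1, Cgas, Irf3, Aim2, Irf8, Myd88, Gbp5 and, at 14 days, Ifitm2 after their values were seen. The time points were compared by a z test on deposited values. On data simulated for 14580 genes of that comparison, true differences of 1 and 2 were called in 67% and 99% of genes, and 4.05% of calls were false. The simulated noise had the same SEs that the test used, and no shrinkage. These shares therefore cannot show how the test does on the deposited values. Lists without a called member are given by counts, and a few genes that the rule would name are not reported here. Shared 31-base words were counted over GENCODE release 21 transcripts. Promoters are RefSeq's (GRCm38.p6, the same assembly as mm10). Figures used matplotlib 3.10.9, tests scipy 1.17.1, and tables pandas 2.3.3 with numpy 2.4.6, in Python 3.11.15.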

Additional observations from a re-analysis of the deposited data

Results flagged for a closer look

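For 24 interferon response genes the log2 fold change of Pou3f1 over Gfp cells differed between 14 days and 48 h (two-sided z test on the difference, Benjamini-Hochberg adjusted p under 0.05 over 14580 genes). The differences, 14 days minus 48 h on the log2 scale, were 3.07 for Ifi27, 2.80 for Usp18, 1.96 for Lgals3bp, 1.89 for Oas1a, 1.75 for Oasl2, 1.74 for Isg15, 1.70 for Rsad2 and 1.65 for Rtp4. They were 1.59 for Ifit1, 1.58 for Parp9, 1.54 for Dtx3l, 1.49 for Mx2, 1.46 for Parp14, 1.44 for Xaf1, 1.43 for Ifih1 and 1.41 for Dhx58. They were 1.399 for Bst2, 1.299 for Ifit3, 1.23 for Oasl1, 1.21 for Oas3, 1.09 for Trim25, 1.08 for Parp12, 1.04 for Eif2ak2 and 1.03 for Irf9. Every one of the 24 was larger at 14 days. Their mean counts at 48 h ran from 8.98 for Ifit3 to 848 for Trim25. Shrinkage, if it was applied, would understate the 48 h fold changes of low genes. Its part in these differences was not tested.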

How the results depend on the processing

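The count of interferon response genes called at 14 days was 35 and lay between 30 and 37 under an adjusted p under 0.01 or 0.1, a 2-fold limit, adjustment over all genes with a p-value, a mean count of at least 10 and centring on the median gene, all of them rises. Mx1 at 14 days was the call lost at an adjusted p under 0.01. At 48 h the count was 0 under each of these settings. At E17.5 it was 1, and 0 with a 2-fold limit, since the fall of Mx1 is smaller than that. The count of genes that differed between the time points was 24, and between 19 and 24 under its alternatives. The 3 medians moved by less than the spread among the genes. Leaving out the 7 genes that share at least 10% of their 31-base words with other genes, an alternative chosen after seeing the data, left 36 genes, of which 29 rose at 14 days. No paired analysis was possible because the files hold no values per library, and for the same reason no library could be left out in turn. The median SE over the 43 genes was 0.268 at 14 days and 0.245 at 48 h, and 15 of the 43 had the larger SE at 48 h. The 5 genes without an adjusted p at 48 h had mean counts of 3.82 to 7.89 and SEs of 0.180 to 0.217, below that median. A smaller SE at 48 h therefore need not mean a more exact estimate. Over all genes, the count called at 14 days was 3690, against 2066 at an adjusted p under 0.01 and 496 with the 2-fold limit. At 48 h it was 447, against 230, 675 (adjusted p under 0.1) and 106, and at E17.5 it was 1487, against 874 and 57. For the difference between the times it was 895, against 441 at an adjusted p under 0.01.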
